A study of Homo sapiens with 4 samples.

Results

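AKAP12 and 9 further genes of cyclic AMP (cAMP) signaling were followed across the libraries of one human lymphoma line. The set held 2 A-kinase anchoring proteins (AKAP12, AKAP13), 2 catalytic subunits (PRKACA, PRKACB) and 2 regulatory subunits (PRKAR1A, PRKAR2B) of protein kinase A (PKA), 3 cAMP phosphodiesterases (PDE4A, PDE4B, PDE4D) and 1 adenylyl cyclase (ADCY7). All 10 were found by symbol among the 25066 genes of the expression table. AKAP12 was chosen by its measured difference in this comparison, the largest fall between genotypes among well expressed genes, so its values are given as a description and without a test. The other 9 were named by their role in the pathway, but with earlier results of these data known, and not every gene of each role was taken. How many of them were called is therefore also a description.

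Adenylyl cyclases make cAMP when receptors coupled to Gs are engaged, and phosphodiesterases break it down. PKA is a complex in which regulatory subunits hold catalytic subunits inactive until cAMP binds, and anchoring proteins place this complex at membranes, organelles or the cytoskeleton near its substrates. In B cells, cAMP signaling is known to restrain antigen receptor signaling, growth and chemotaxis, and PDE4 enzymes are the main phosphodiesterases of lymphocytes.

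The cells were NUDUL1, a human diffuse large B cell lymphoma line of the germinal center B cell type, in the form of a clone with doxycycline-inducible Cas9 that had been transduced with the thromboxane receptor Tbxa2r. Cells expressed either a control sgRNA or a GNA13 sgRNA, with 1 sgRNA per genotype, and GNA13 encodes Gα13, a G protein subunit through which this receptor signals. All 4 libraries, 2 per genotype, came from cells given 10 nM U46619, a stable thromboxane-A2 analog, for 24 h. The comparison is therefore between genotypes under receptor stimulation and holds no untreated cells. The labels number the libraries of a genotype as replicates without saying that they came from separate cultures. The p values therefore measure only the spread between these libraries.

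Mapped reads per library ranged from 29209544 to 31537955. GNA13 mRNA was not lower in the libraries labelled GNA13-deficient: its log2 values were 12.46 and 12.45 in control and 13.10 and 13.11 in GNA13-deficient libraries (difference 0.65, standard error 0.05, adjusted p = 0.00214). A Cas9 sgRNA can act on the protein without lowering the mRNA, so this level cannot decide whether the labels are right. Every direction given here rests on the labels. B cell identity was measured with 8 markers, all above 0 in every library, with a summed level of 70081 to 77381 normalized reads. The T cell markers CD3D and CD3E were listed at 0 in all libraries, yet the summed level of 5 T cell markers was 122 and 177 in control and 13.3 and 5.38 in GNA13-deficient libraries, mostly from CD4. The summed level of 4 myeloid markers was 228 and 242 against 27.7 and 26.9, with CD14 listed at 0 in both GNA13-deficient libraries. The 5 stromal markers summed to 9.16 and 3.94 against 17.4 and 8.60 with DCN at 0 throughout, and the 4 epithelial markers to 38.7 and 45.3 against 94.4 and 106 with KRT8 and KRT18 at 0 throughout. Of 4 plasma cell markers 3 were in the table, with a summed level of 1117 and 1250 against 636 and 730. The part of these marker differences in the results below was not tested.

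Among the 10 genes, AKAP12 was far lower in GNA13-deficient cells, PRKAR2B was higher, PDE4B and PDE4D were lower, and the other 6 differed by about 0.5 or less on the log2 scale. Values are log2 normalized reads, and differences are GNA13-deficient minus control, tested by limma with a mean-variance trend over 16945 genes and called at a Benjamini-Hochberg adjusted p under 0.05. Of the 9 genes other than AKAP12, 2 were called higher (PRKACA, PRKAR2B), 6 lower (AKAP13, PRKACB, PRKAR1A, PDE4B, PDE4D, ADCY7) and 1 was not called (PDE4A), with a median difference of -0.32. These 9 and the pathway lists below were chosen with earlier results of these data known. Their shares of calls are therefore no test of the pathway. Over all genes tested, 29.7% were called, 13.1% higher and 16.6% lower, with a median difference of -0.02, and among the 8473 genes with a mean at or above the median 39.0% were called. In all 10 cAMP-PKA genes the 2 genotypes did not overlap, which was also the case for 65.3% of all genes tested. In bulk RNA, fewer cells that express a gene and less RNA per cell cannot be told apart.

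The smaller differences depended on which scaling was used. After quantile normalization, 6 of the 9 genes other than AKAP12 were still called lower and 2 higher. AKAP13 was then at -0.61 (limma adjusted p = 0.00809), PRKACB at -0.33 (0.0101) and PRKAR1A at -0.46 (0.00945). Median centring gave another picture. Centring each library on its own median moved the median difference of all genes to 0.18 and the share of called genes that were higher from 44.03% to 69.1%. On that scale AKAP13 (adjusted p = 0.0950), PRKACB (0.541), PRKAR1A (0.253) and ADCY7 (0.245) were no longer called. Without the filter on low values these 4 genes and PRKACA lost the call (adjusted p = 0.0509 to 0.171), as they did without the variance trend (0.0929 to 0.127). PRKAR2B, PDE4B and PDE4D were called in every one of the 10 alternatives that kept all 4 libraries and tested them. With any 1 library left out, limma had 1 residual degree of freedom and called 0 of 16945 genes, with 5257 to 5600 at an unadjusted p under 0.05, and all 9 genes kept the sign of their difference.

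**Figure D1:**
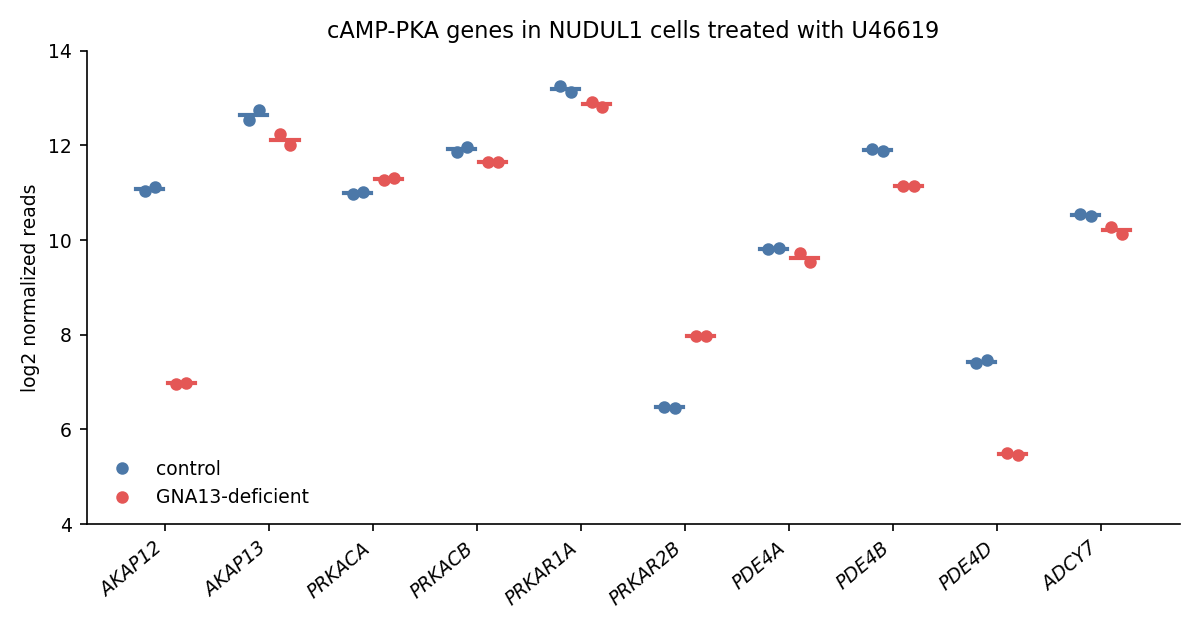
Log2 normalized reads of the 10 cAMP-PKA genes in each library, with 2 control libraries (blue) and 2 GNA13-deficient libraries (red) per gene and a line at each genotype's mean. AKAP12 drops from about 11 to about 7, PRKAR2B is the gene with the largest upward step, and no gene's genotypes overlap.

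AKAP12 encodes a large scaffold, also called gravin, that binds PKA and protein kinase C at the plasma membrane and cytoskeleton. The gene (Entrez 9590) lies at chr6:151561102-151679694 on the plus strand (GRCh37, GENCODE). Its log2 values were 11.03 and 11.13 in the control libraries and 6.97 and 6.99 in the GNA13-deficient libraries, from 2052 and 2279 reads and from 122 and 118 reads. Control libraries were within 0.10 of each other and GNA13-deficient libraries within 0.02. The difference was -4.10 with a standard error of 0.08, or 17.2-fold lower, and pairs of single libraries gave folds of 16.4 to 17.9. It was the largest fall among the 8473 genes with a mean at or above the median, ahead of MLC1 at -3.86, DAPL1 at -3.84 and ATP11A at -3.82. Among all 16945 genes it ranked 104, every larger fall being in a gene with a mean below the median.

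**Figure D2:**
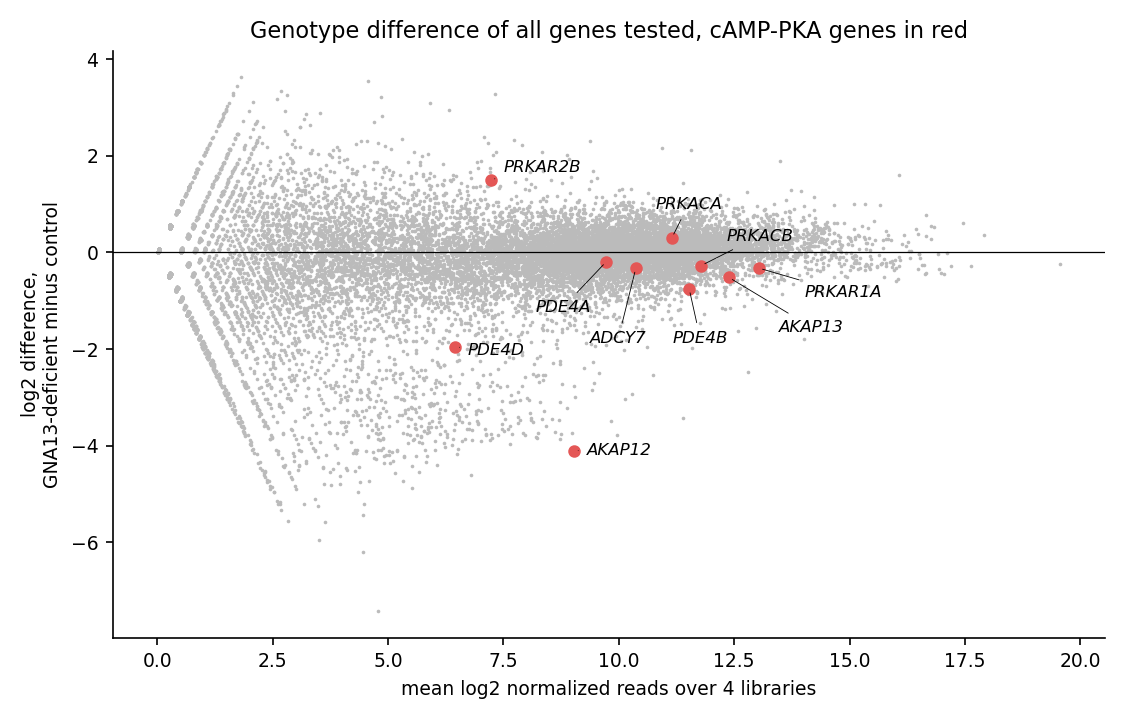
Difference between genotypes (GNA13-deficient minus control, log2) against mean level over the 4 libraries (log2 normalized reads), with 1 gray point per gene tested and the 10 cAMP-PKA genes in red. AKAP12 sits at the lower edge of the points for its level at -4.10, and the points of PDE4D (-1.95) and PRKAR2B (1.50) lie furthest left of the 10.

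AKAP12 had the largest difference of the 10 genes, and the 250 bases before each of its 3 annotated starts are shown, taken from RefSeq (GRCh38.p14) and placed in GRCh37 by exact match. All are on the plus strand. The first window, chr6:151560852-151561101, lies just outside the gene. The second, chr6:151646416-151646665, and the third, chr6:151662591-151662840, lie inside the gene, ahead of starts of shorter transcripts, and the third is printed only as its last 60 bases because 20 bases of the window belong to an exon of another transcript. Capitals mark CACGTG, the palindromic E-box bound by factors of the basic helix-loop-helix class.

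AKAP12 window 1: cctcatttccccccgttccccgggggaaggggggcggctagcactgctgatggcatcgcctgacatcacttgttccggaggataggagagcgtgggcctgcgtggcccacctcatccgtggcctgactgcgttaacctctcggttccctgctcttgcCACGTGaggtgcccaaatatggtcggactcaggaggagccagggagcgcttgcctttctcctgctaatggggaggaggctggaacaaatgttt
AKAP12 window 2: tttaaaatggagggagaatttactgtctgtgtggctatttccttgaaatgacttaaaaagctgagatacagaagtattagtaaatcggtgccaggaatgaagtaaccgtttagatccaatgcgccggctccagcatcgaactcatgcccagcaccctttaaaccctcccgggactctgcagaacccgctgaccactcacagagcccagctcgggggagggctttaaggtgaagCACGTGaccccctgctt
AKAP12 window 3, last 60 bases: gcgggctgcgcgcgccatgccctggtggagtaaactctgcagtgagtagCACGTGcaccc

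Each AKAP12 window held 1 E-box, at 93, 17 and 11 bases before its start. The E-box was looked for after these windows had been read. Of 35116 RefSeq windows of the same length, 6.34% held it, and of 27305 genes 7.73% did in at least 1 window. No AKAP12 window held TGACGTCA, the cAMP response element (CRE), or its shorter forms TGACG and CGTCA. These matches describe letters in the windows, and no binding was measured.

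The 5 well expressed genes whose values ran closest to those of AKAP12 were MLC1, a membrane protein known from astrocytes, ATP11A, a phospholipid flippase, DAPL1, CD9, a tetraspanin, and CASP4, an inflammatory caspase. Likeness was the largest distance over the 4 libraries after the control mean of each gene was taken off, and it came to 0.25 for MLC1, 0.28 for ATP11A, 0.37 for DAPL1, 0.40 for CD9 and 0.42 for CASP4 on the log2 scale. Their differences were -3.86, -3.82, -3.84, -3.78 and -3.72. All 5 were therefore less far below control than AKAP12, and with 4 libraries in 2 genotypes this measure mostly ranks genes by the size of the fall. The same 5 genes came first by Euclidean distance, and 4 of them did after quantile normalization.

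**Figure D3:**
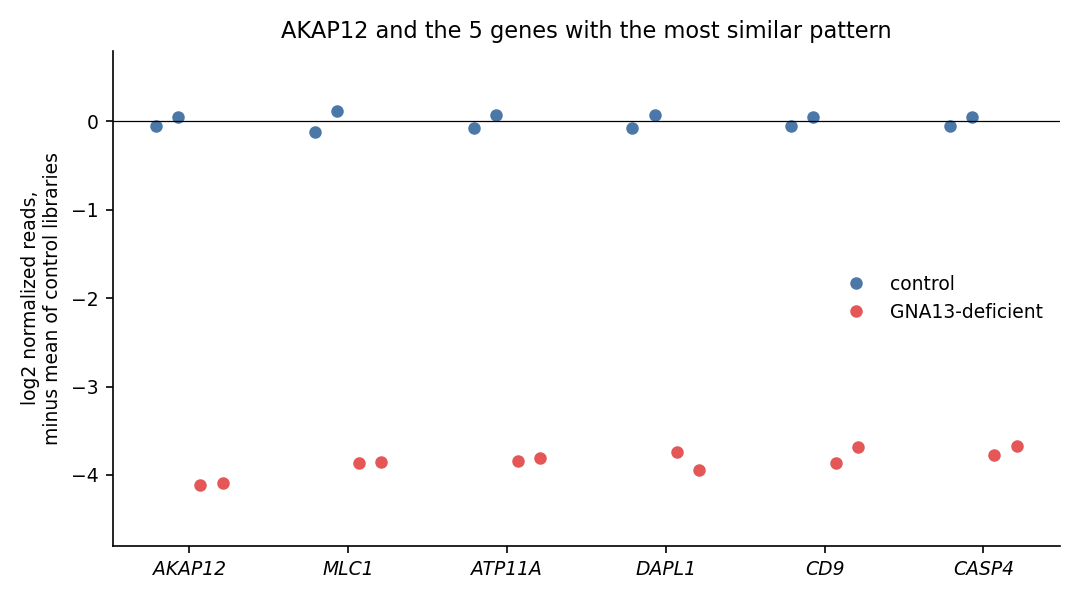
Log2 normalized reads of AKAP12 and the 5 genes closest to it in each library, less the mean of the control libraries, with control in blue and GNA13-deficient in red. The GNA13-deficient libraries of AKAP12 are the lowest, and those of the other 5 genes sit above them.

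AKAP13 was lower to a much smaller extent. It encodes AKAP-Lbc, which anchors PKA and is also a guanine nucleotide exchange factor for RhoA (Entrez 11214, chr15:85923802-86292589). Its log2 values were 12.53 and 12.74 in control and 12.23 and 12.01 in GNA13-deficient libraries. The genotypes did not overlap, but libraries of a genotype were 0.21 and 0.22 apart. The difference was -0.51 (standard error 0.11, adjusted p = 0.0251), and -0.31 after median centring.

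Of 15 anchoring protein genes 14 were tested, and 1 was called higher and 5 lower, at a median difference of -0.19, where 13.1% of all genes tested were called higher and 16.6% lower. AKAP12, chosen for its fall, is 1 of the 5. AKAP11 fell by 0.55 on the log2 scale (standard error 0.08, adjusted p = 0.00790), and AKAP8L, a nuclear family member, fell by 0.55 (standard error 0.06, adjusted p = 0.00428). AKAP1, which anchors PKA at the outer mitochondrial membrane, rose by 0.28 (standard error 0.05, adjusted p = 0.0165). AKAP7, chosen here after its values were seen, had the second lowest difference of the family at -2.06 (standard error 0.22, adjusted p = 0.00399), from 426 and 560 reads in control and 97 and 129 in GNA13-deficient libraries. AKAP12 and AKAP7 were thus the anchoring proteins with differences beyond 2 on the log2 scale.

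The PKA catalytic subunits moved in opposite directions. PRKACA, which encodes the Cα subunit (Entrez 5566, chr19:14202500-14228896, minus strand), had log2 values of 10.97 and 11.02 in control and 11.28 and 11.32 in GNA13-deficient libraries. It rose by 0.30 (standard error 0.05, adjusted p = 0.0159). PRKACB, which encodes Cβ (Entrez 5567, chr1:84543745-84704181), had values of 11.86 and 11.97 in control and 11.65 and 11.64 in GNA13-deficient libraries. It fell by 0.27 (standard error 0.06, adjusted p = 0.0275), a difference that was -0.06 and not called after median centring, where PRKACA stayed called at 0.51. PRKX, a related kinase whose reads may be shared with a near-identical paralog, was not called, with values of 12.09 and 11.91 against 11.94 and 11.79 and overlapping genotypes.

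Among the regulatory subunits, 3 fell and PRKAR2B rose. PRKAR2B encodes RIIβ (Entrez 5577, chr7:106685150-106802256) and was at 6.49 and 6.45 in control and 7.97 and 7.98 in GNA13-deficient libraries, from 88 and 89 reads and from 244 and 234 reads. Libraries of a genotype were within 0.03 of each other. The difference was 1.50 (standard error 0.14, adjusted p = 0.00280), or 2.84-fold higher. PRKAR1A, which encodes RIα (Entrez 5573, chr17:66507921-66547460), had the highest level per kilobase of the 10 genes, with log2 values of 13.26 and 13.12 in control and 12.91 and 12.82 in GNA13-deficient libraries. It fell by 0.32 (standard error 0.07, adjusted p = 0.0304).

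The other two regulatory genes, which had been listed by role, were both lower. PRKAR1B was at 11.55 and 11.67 in control and 10.94 and 11.04 in GNA13-deficient libraries, and it fell by 0.62 (standard error 0.07, adjusted p = 0.00470). PRKAR2A fell by 0.30 (standard error 0.06, adjusted p = 0.0205), and lost the call after median centring at -0.09. The 3 genes of inhibitor peptides, which bind free catalytic subunits, were split. PKIG fell by 0.95 (standard error 0.08, adjusted p = 0.00222) and PKIA rose by 0.56 (standard error 0.07, adjusted p = 0.00603), while PKIB had 2 to 6 reads per library.

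The make-up of each family was compared as a share of its summed normalized reads per kilobase of the longest transcript. For the catalytic subunits only PRKACA and PRKACB were summed, and the listed PRKX and PRKACG were left out. PRKACA made up 43.9% and 43.0% of catalytic subunit reads in control and 53.0% and 53.8% in GNA13-deficient libraries, so that PRKACB went from the larger to the smaller share. This order depended on the length used: with coding length PRKACA averaged 33.0% and 42.3%, and PRKACB stayed the larger in both genotypes. PRKAR2B made up 0.782% and 0.779% of regulatory subunit reads in control and 2.89% and 2.95% in GNA13-deficient libraries, a small part in either genotype. PRKAR1A held 50.8% to 57.0% in all libraries with overlapping genotypes, and PRKAR1B held 37.7% and 41.8% against 32.9% and 35.5%. With coding length PRKAR1A averaged 68.4% in control and 70.2% in GNA13-deficient libraries, PRKAR1B 22.9% and 19.1%, and PRKAR2B 0.591% and 2.15%. With the shortest coding transcript PRKAR2B averaged 0.0972% and 0.356%, higher in GNA13-deficient libraries under each length. Summed over the family, the log2 difference per kilobase was 0.01 for catalytic and -0.40 for regulatory subunits.

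**Figure D4:**
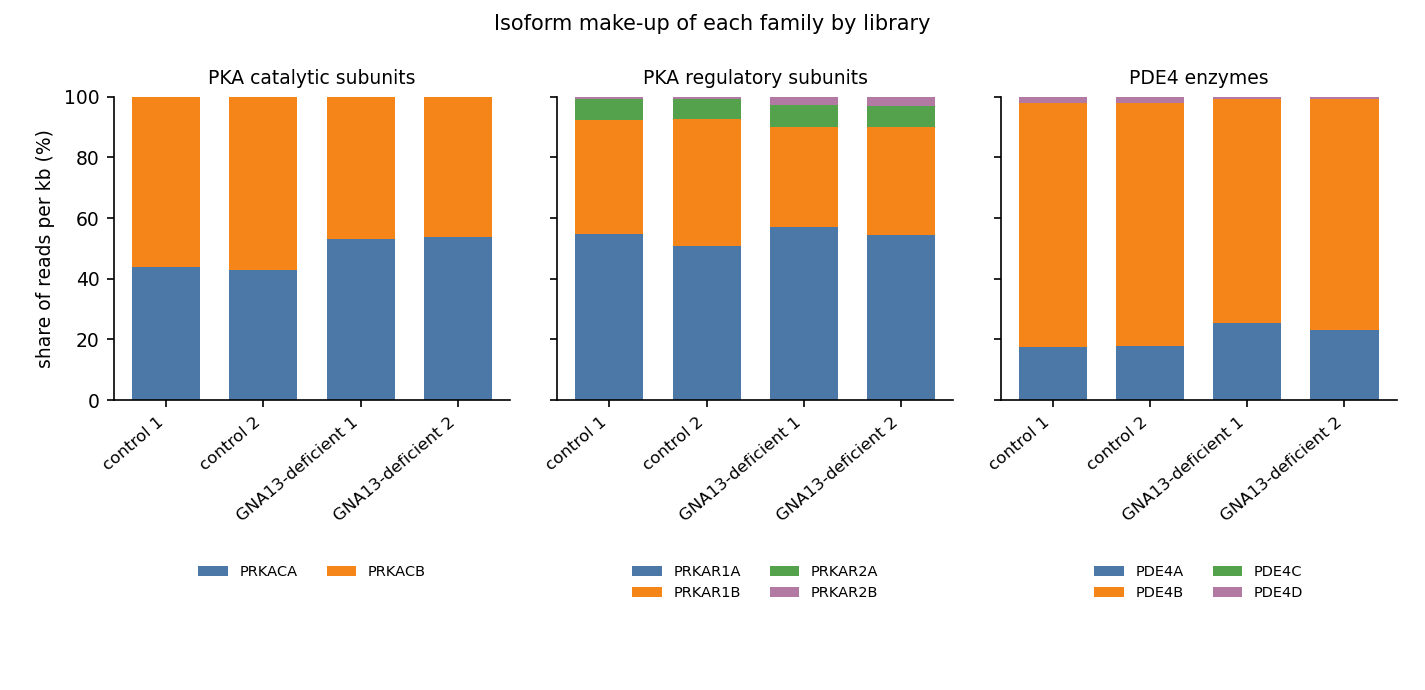
Share (%) of summed normalized reads per kilobase that each gene holds in its family, with 1 stacked bar per library for PKA catalytic subunits (PRKACA and PRKACB only), PKA regulatory subunits and PDE4 enzymes. PRKACA grows from about 43% to about 53% of its family, PRKAR2B stays under 3%, and PDE4B makes up most of the PDE4 bars in every library.

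PDE4B and PDE4D were lower in GNA13-deficient cells, and PDE4A was not called. These enzymes hydrolyze cAMP and are the targets of rolipram. PDE4B (Entrez 5142, chr1:66258197-66840262) had log2 values of 11.92 and 11.88 in control and 11.15 and 11.15 in GNA13-deficient libraries. It fell by 0.75 (standard error 0.05, adjusted p = 0.00169), against 0.05 between the control libraries. PDE4D (Entrez 5144, chr5:58264865-59817947, minus strand) had values of 7.41 and 7.46 in control and 5.50 and 5.46 in GNA13-deficient libraries, from 167 and 179 reads and from 44 and 41 reads. It fell by 1.95 (standard error 0.18, adjusted p = 0.00287), or 3.88-fold.

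PDE4A (Entrez 5141, chr19:10527449-10580306) had values of 9.82 and 9.83 in control and 9.73 and 9.54 in GNA13-deficient libraries. Its GNA13-deficient libraries were 0.19 apart, as much as the difference of -0.19 between genotypes (standard error 0.09, adjusted p = 0.166), which turned to 0.02 after median centring. PDE4A therefore took a larger part of PDE4 reads per kilobase in GNA13-deficient libraries, 25.5% and 23.1% against 17.4% and 18.0%. PDE4B held 80.5% and 79.9% in control and 73.6% and 76.1% in GNA13-deficient libraries, and PDE4D went from 1.96% and 2.07% to 0.813% and 0.818%. With coding length PDE4D averaged 3.33% and 1.37%, and with the shortest coding transcript PDE4A averaged 5.91% and 8.58%. The summed PDE4 level differed by -0.65 on the log2 scale.

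Of 16 cAMP phosphodiesterase genes 13 were tested, and 5 were called lower and 0 higher by limma, also at an unadjusted p under 0.05, and 4 and 0 with voom weights, at a median difference of -0.66. PDE4B and PDE4D are 2 of the 5, and of all genes tested 16.6% were called lower and 13.1% higher. PDE4C, also among the 5, had 8 or fewer reads in every library. PDE3B, an enzyme that cGMP inhibits, was at 10.46 and 10.44 in control and 7.05 and 6.91 in GNA13-deficient libraries. It fell by 3.47 (standard error 0.09, adjusted p = 0.000594), from 1383 and 1407 reads to 129 and 112 reads, and was the family member with the largest difference. PDE8A, a high-affinity enzyme, fell by 0.66 (standard error 0.12, adjusted p = 0.0173). PDE7A was not called, with values of 11.34 and 11.17 against 11.26 and 11.20.

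**Figure D5:**
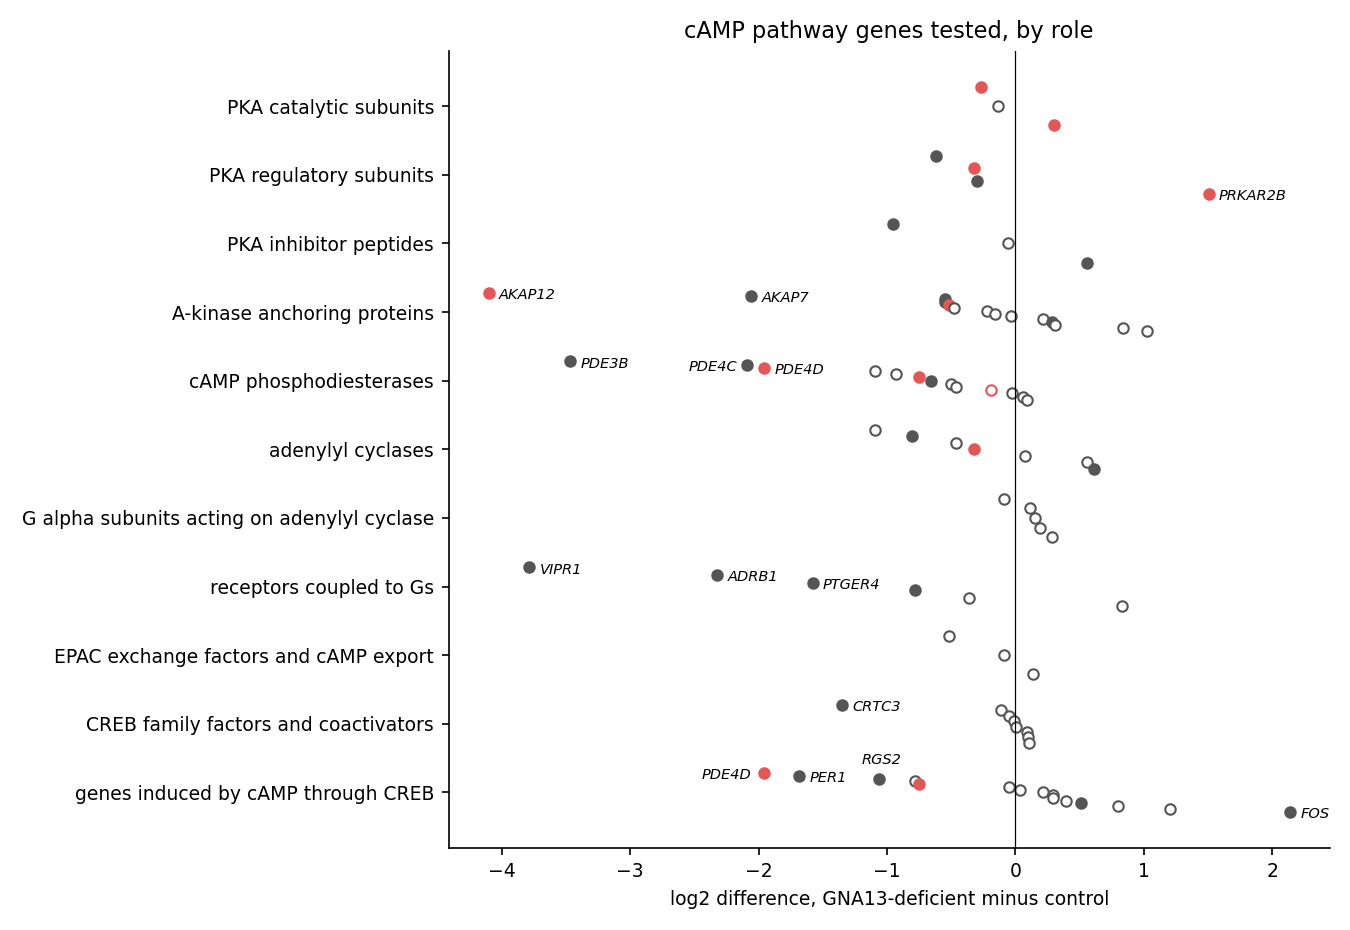
Difference between genotypes (GNA13-deficient minus control, log2) of each tested cAMP pathway gene, in rows by role, with the 10 cAMP-PKA genes in red, other genes in gray, filled points for genes called at an adjusted p under 0.05 and for AKAP12, and open points for the rest. Called phosphodiesterases and receptors lie left of 0, G alpha subunits lie near 0, and PRKAR2B lies furthest right among PKA subunits. PDE4B, PDE4D and CREM appear in 2 rows.

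ADCY7, an adenylyl cyclase isoform of blood cells (Entrez 113, chr16:50280048-50352046), had log2 values of 10.56 and 10.51 in control and 10.28 and 10.13 in GNA13-deficient libraries. It fell by 0.33 (standard error 0.08, adjusted p = 0.0326), with GNA13-deficient libraries 0.16 apart, and was no longer called after median centring. ADCY3 went the other way, from 10.63 and 10.53 to 11.18 and 11.20, a rise of 0.61 (standard error 0.06, adjusted p = 0.00354). ADCY9, chosen after its values were seen, fell by 0.81 (standard error 0.16, adjusted p = 0.0228). Of 10 adenylyl cyclase genes 7 were tested, with 1 called higher, 2 called lower and the remaining 4 not called. Of all genes tested, 13.1% were called higher and 16.6% lower.

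Upstream of the cyclases, 0 of the 5 G alpha genes tested were called by limma, 1 of them at an unadjusted p under 0.05, and 0 with voom weights. GNAS, which encodes the stimulatory subunit, was at 14.74 and 14.80 in control and 14.89 and 14.95 in GNA13-deficient libraries (difference 0.15, adjusted p = 0.207). Of 12 receptors coupled to Gs, 6 were tested, and 4 were called lower and 0 higher, where 16.6% of all genes tested were called lower and 13.1% higher. At an unadjusted p under 0.05, 5 were lower and 0 higher, as they were called with voom weights. ADORA2A, an adenosine receptor, fell by 0.78 (standard error 0.12, adjusted p = 0.00963). PTGER4, the prostaglandin E2 receptor EP4, was named after its values had been seen. It fell by 1.58 (standard error 0.14, adjusted p = 0.00292), with a drop from 255 and 302 reads to 92 and 85 reads. The other called receptors had 15 or fewer reads in every library.

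Downstream, 1 of 8 CREB family factors and coactivators was called. This was CRTC3, a CREB coactivator, at 9.63 and 9.78 in control and 8.36 and 8.35 in GNA13-deficient libraries, and it fell by 1.35 (standard error 0.09, adjusted p = 0.00161). CREB1 was not called, with a difference of 0.10 (adjusted p = 0.209). Of 15 genes that cAMP is known to induce through CREB, 2 were called higher and 4 lower, PDE4B and PDE4D among the latter, at a median difference of 0.22. For both lists the share over all genes tested was 13.1% called higher and 16.6% lower. FOS, 1 of the 2 called higher, had 7 or fewer reads in every library. DUSP1, a MAP kinase phosphatase, rose by 0.51 (standard error 0.09, adjusted p = 0.0161), while NR4A1 was not called at 0.29 (adjusted p = 0.163). PER1, a clock gene, fell by 1.69 (adjusted p = 0.00162), and RGS2, a regulator of G protein signaling, fell by 1.07 (adjusted p = 0.00530). Both were chosen after their values were seen. Of the 3 genes for EPAC exchange factors and cAMP export, 0 were called by limma, by voom weights or at an unadjusted p under 0.05.

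Over all lists, 83 pathway genes besides the 10 followed here were looked up and 68 were tested. Of these, 5 were called higher and 17 lower, at a median difference of -0.06. The share called in either direction was close to the 29.7% over all genes tested. By direction, the share called higher was below the 13.1% of all genes, and the share called lower was above the 16.6%. As the lists were chosen with earlier results of these data known, these shares are a description and no test of the pathway. Among the 13 pathway genes named by rule, ADCY3, AKAP8L, CRTC3, DUSP1, PDE3B, PKIA and PKIG were called in every one of the 10 alternatives that kept all 4 libraries and tested them. The other 6 lost the call in at least 1, among them AKAP11, PDE8A, ADORA2A and PRKAR1B without the filter (adjusted p = 0.0549 to 0.127) and AKAP1, AKAP11, PDE8A and PRKAR2A without the variance trend (0.0571 to 0.0994).

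Levels were compared between the 10 genes as normalized reads per kilobase of the longest transcript. In control cells the mean level was 1624 for PRKAR1A, 858 for PRKACB, 840 for PDE4B, 659 for PRKACA, 479 for AKAP13, 256 for AKAP12, 236 for ADCY7, 185 for PDE4A, 24.0 for PRKAR2B and 21.1 for PDE4D. Neighbors in this order did not overlap between the 2 libraries, except PRKACB and PDE4B. In GNA13-deficient cells it was 1299 for PRKAR1A, 812 for PRKACA, 710 for PRKACB, 499 for PDE4B, 336 for AKAP13, 189 for ADCY7, 162 for PDE4A, 68.1 for PRKAR2B, 14.9 for AKAP12 and 5.44 for PDE4D, and no neighbors overlapped. AKAP12 thus went from rank 6 to rank 9 of 10. With coding length it went from rank 7 to rank 9, and with the shortest coding transcript from rank 9 to rank 10. The order of PRKACA and PRKACB in GNA13-deficient cells also depended on the length, as their shares did.

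Promoter windows were found in RefSeq for all 10 genes, 38 windows in all, and searched on both strands. These genes had more windows each than the 27305 genes with 35116 windows, so the shares of genes below are not like for like. The CRE stood in 1 window, ahead of a start of PRKAR1A, against 1.65% of all windows and 2.03% of genes. Its shorter forms TGACG and CGTCA, which every CRE also contains, stood in 6 windows of 5 genes (PDE4A, PDE4D, PRKACA, PRKACB, PRKAR1A), against 21.2% of windows and 24.9% of genes. The E-box stood in 5 windows of 3 genes, AKAP12, PRKAR1A and PRKAR2B, against 6.34% of windows and 7.73% of genes, and 3 of the 5 are the AKAP12 windows in which it was first seen. The PRKAR2B window, chr7:106684900-106685149 on the plus strand, is shown with its E-box in capitals, 137 bases before the start. The 30 bases around the PRKAR1A CRE, which begins 49 bases before the start that ends the window chr17:66508321-66508570, are shown with the CRE in capitals.

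PRKAR2B window: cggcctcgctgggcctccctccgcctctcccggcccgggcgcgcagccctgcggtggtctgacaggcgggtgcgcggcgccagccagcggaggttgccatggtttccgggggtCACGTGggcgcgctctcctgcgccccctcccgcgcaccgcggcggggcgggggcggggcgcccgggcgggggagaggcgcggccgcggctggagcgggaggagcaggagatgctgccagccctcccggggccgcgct
PRKAR1A, bases 60 to 31 before the start: gcgaggcgcatTGACGTCAgtagccgaacg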

How the data were processed

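RNA sequencing was done on 4 libraries of NUDUL1 cells, 2 labelled control and 2 labelled GNA13-deficient, prepared as stranded libraries from mRNA. Reads were aligned by the authors to hg19 with STAR, and the submitters' processing notes name HTSeq. The strand setting of the counting and the method of normalization are not given in the sources used here, so a gene and an overlapping antisense gene may share reads. The authors deposited log2 normalized reads for 25066 genes, and a row of total mapped reads in the same columns, on a linear scale, was used only for depth. Low values stepped in whole reads (within 0.02 reads for 100% of values), from which the reads quoted were recovered. Control library 2 listed 1 read as 0.

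Genes above 0 in at least 2 libraries (16945) were fitted with limma 3.58.1 in R 4.3.3 (lmFit, eBayes with a mean-variance trend, genotype as the only term, no pseudocount), with Benjamini-Hochberg adjustment over all of them. The script was tested on simulated data. The 10 genes and the pathway lists were chosen with earlier results of these data known, and PDE4B, PDE4D and CREM stand in 2 lists. Named genes were the 10, GNA13, called list members with a mean at or above the median (8.13) up to 4 per list, the highest-level paralog of a family, the 5 genes most like AKAP12 and the 3 next falls. Others are said to have been chosen after their values were seen. Depth was 29209544 to 31537955 reads per library. An exact permutation of 2 against 2 libraries cannot go below p = 0.333, so none is given. Gene positions and lengths are from GENCODE on GRCh37, and promoter windows are from RefSeq. Alternatives were the filter, pseudocounts of 1 and 10, quantile normalization, median centring, the variance model, limma's voom weights on recovered reads, the replicate number as a block and leaving out each library.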

Additional observations from a re-analysis of the deposited data

How the results depend on the processing

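Without a filter on low values 1999 genes were called, of which 1885 were among the 5037, and without a variance trend 2718, of which 2520 were. Of the 9 genes other than AKAP12, 2 were then called lower and 1 higher in both of these settings, 2 were called lower after median centring, and 1 was called higher when only genes at or above the median were tested, a setting that leaves PRKAR2B out. Other pathway genes called lower numbered 10 without a filter and 11 at or above the median, where fewer genes were tested. Those called higher numbered 9 after quantile normalization, 11 after median centring, 9 with the replicate block and 3 without a variance trend. Where no construction of the setting shows it, the cause was not tested. Leaving out each library gave 0 calls for all genes, for the 10 genes and for the other pathway genes, from limma with 3 libraries and 1 residual degree of freedom, where the lone library of a genotype is assumed to vary like the pair of the other. The log2 difference of AKAP12 was -3.998 on log2(value + 10), -3.93 after quantile normalization, -3.89 after median centring and -4.15 to -4.05 with a library left out. PDE4A turned to 0.0175 after median centring. With all 4 libraries, 204 of the values for named genes kept direction and side of the threshold, 23 lost the call and 1 turned. With a library left out, none of the values for named genes changed direction. Whether a call was kept is not counted there, as those fits called no gene.

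The replicate number was fitted as a block, which called 6616 genes, 5011 of them among the 5037. Deviations of same-numbered libraries correlated at 0.453 across 8473 genes, but there are only 2 pairs and no source pairs the libraries. The block changed no call among the 9 genes.

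Count-model tests on the recovered reads, planned as 2 alternatives, were not run. The values are deposited on a log scale, and the recovered reads were fitted only with limma's voom weights. At this depth, genes such as PDE4D in GNA13-deficient cells rest on 41 to 44 reads.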

Other observations

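Several cAMP pathway genes passed the test on few reads. VIPR1, a receptor for vasoactive intestinal peptide, had 14 and 15 reads in control and 1 and 1 in GNA13-deficient libraries. ADRB1, the beta-1 adrenergic receptor, had 5 and 5 reads in control and 0 and 0 in GNA13-deficient libraries. PDE4C, the fourth PDE4 enzyme, had 8 and 5 reads against 2 and 1. FOS, an immediate early gene that CREB induces, had 1 and 2 reads against 7 and 5. No fold is given for these genes. Of the 12 receptors coupled to Gs, 5 were listed at 0 in all 4 libraries, among them PTGER2 and HRH2. AKAP6 had 25 and 25 reads in control and 57 and 41 in GNA13-deficient libraries (difference 1.02, adjusted p = 0.0568 from limma), and NR4A3 had 17 and 13 against 38 and 28 (difference 1.204, adjusted p = 0.0598), so that neither passed the threshold. These genes were chosen after their values were seen.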
